A study of Mus musculus with 95 samples.

Results

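Integrins, laminins and the remaining core proteins of basement membranes were followed through nerve and kidney of diabetic mice treated with pioglitazone. The members were taken by symbol alone: every integrin alpha or beta chain whose symbol is Itga or Itgb followed by its number (or Itgav), every laminin chain with a numbered Lama, Lamb or Lamc symbol, and Nid1, Nid2, Hspg2 and Agrn. This gave 35 of the 25407 gene symbols of the files, namely 13 integrin alpha chains, 8 integrin beta chains, 10 laminin chains and 4 nidogen or proteoglycan genes. The laminin chain listed as Lamb1-1 was outside the rule and had a value above 0 in 4 of the 95 libraries.

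Laminins are heterotrimers of an alpha, a beta and a gamma chain, which polymerize on the cell surface and are tied to the collagen IV network by the nidogens and by the heparan sulphate proteoglycans perlecan (Hspg2) and agrin (Agrn). Integrins are alpha-beta heterodimers that bind these and other matrix proteins outside the cell and the actin cytoskeleton inside it. In peripheral nerve a basement membrane surrounds each Schwann cell and the perineurium, and in the glomerulus a basement membrane shared by podocytes and endothelium is part of the filtration barrier.

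Sciatic nerve (SCN), dorsal root ganglia (DRG), isolated kidney glomeruli (Glom) and kidney cortex (Cortex) came from male mice on the C57BLKS background (strain BKS.Cg-m +/+ Leprdb/J) at 16 weeks of age. Diabetic db/db mice carry both copies of a mutant leptin receptor gene, become obese and develop type 2 diabetes, and heterozygous db/+ mice served as non-diabetic controls. Mice of both genotypes ate chow without drug or chow giving 15 mg/kg pioglitazone (PIO), a PPARG agonist used as an insulin sensitizer, for 11 weeks. There were 6 libraries in 15 groups and 5 in DRG db/db, 16 groups in all, and the labels do not name the animal behind a library, so p-values measure the spread between these libraries. Genetic background, sex and age were shared by all groups, and the leptin receptor mutation affects appetite and body weight as well as glucose.

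The values were FPKM (fragments per kilobase of transcript, scaled to the mapped fragments of the library), and an exact 0 was read as missing. Of the 3325 entries for the 35 members, 1832 (55.1%) were 0, and no member had a value in all 95 libraries. Genes that every cell uses were also often at 0, such as Gapdh in 34 libraries and Actb in 74. The files give no counts, so the depth of each library is unknown, and the number of members with a value per library ran from 7 to 21 (SCN), 18 to 24 (DRG), 7 to 17 (Glom) and 13 to 25 (Cortex libraries). Cortex db/db replicate 6 stood apart: its FPKM values summed to 601310, against a Cortex median of 224008, and it held the lowest value of 14 of the 16 members compared among the Cortex db/db libraries, as it did for 51.3% of 1259 genes of mean FPKM at least 1 with a value in all 6. In sums over marker lists an entry at 0 added nothing, so a low sum can also come from missing entries. Summed FPKM of the Schwann cell markers ran from 29070 to 39720 in SCN db/+, and that of the podocyte markers from 3702 to 5514 in Glom db/+ against 3.25 to 25.19 in Cortex db/+. The sensory neuron markers were all listed at 0 in DRG db/+, and the proximal tubule markers had a median sum of 5.42 in Cortex db/+, so these labels could not be checked with those lists.

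Agrn, Itga7 (a laminin receptor of muscle) and Itgb4 (the beta chain of hemidesmosomes) were listed at 0 in all 95 libraries. Missing values were not limited to weakly expressed genes. Itgb1, the beta chain shared by most laminin and collagen receptors, had a value in 14 libraries and then reached 137.01 to 151.97 FPKM in 4 SCN libraries, all from mice given pioglitazone. Untreated mice held Itgb1 values in other tissues, such as 86.39 FPKM in DRG db/+ and 68.33 in Cortex db/+. Which libraries held a value gives no direction. Lama1, by contrast, had a value in 23 of the 24 SCN libraries at 0.01 to 0.06 FPKM. Hspg2 had a value in 4 libraries, all of Cortex, Itga3 and Itga6 in 8 each, Itgb8 in 9 and Lamb2 in 10. The map of values per group shows how many libraries stand behind the comparisons.

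**Figure D1:**
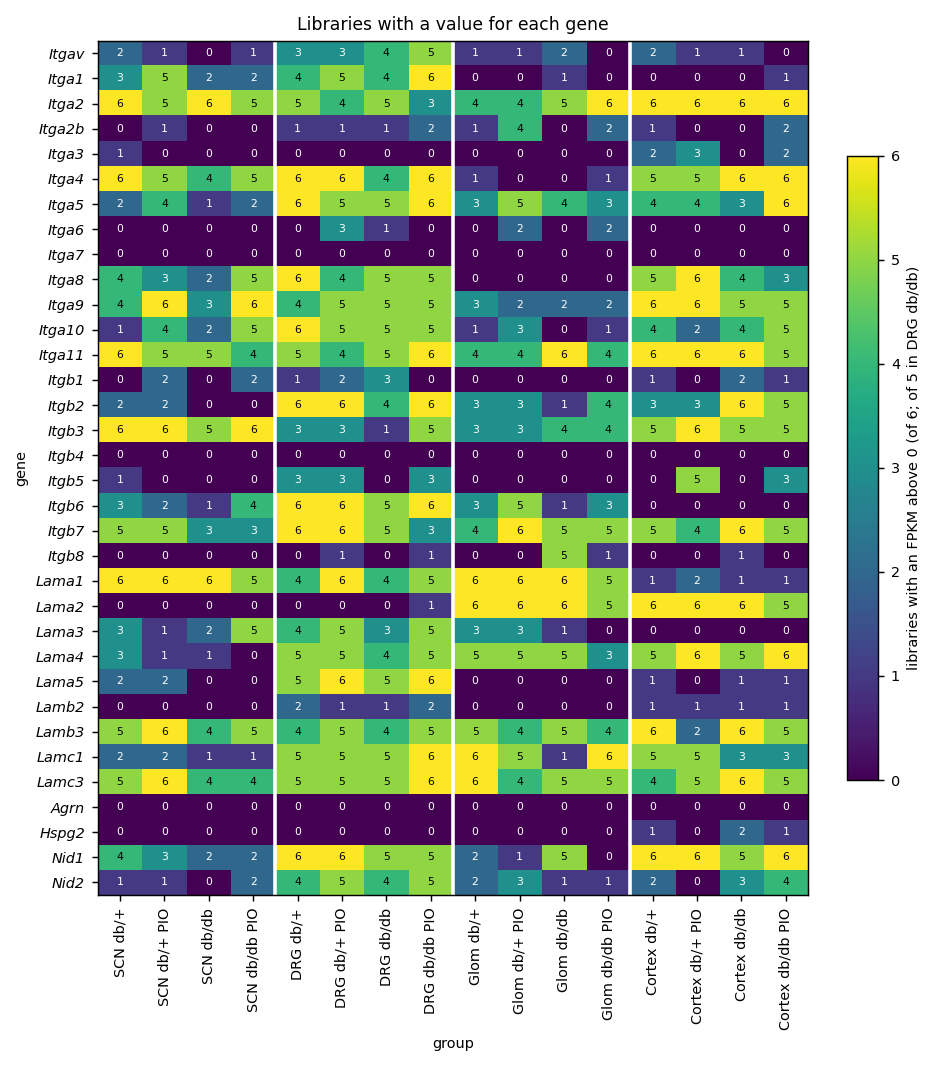
Number of libraries with an FPKM above 0 for 34 of the genes (rows) in each of the 16 groups (columns, 6 libraries each, 5 in DRG db/db), from 0 (dark) to 6 (light). Agrn, Itga7 and Itgb4 have no value in any group, and Nid1 has a value in every library of DRG db/+, DRG db/+ PIO and DRG db/db and in none of Glom db/db PIO.

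The first comparison asked how these genes differ between tissues of non-diabetic mice. Nid1 and Lama4 were higher in sciatic nerve than in the ganglia. Nid1, which links laminin to collagen IV (mm9 chr13:13529869-13604542, plus strand), had FPKM values of 95.99, 115.82, 66.6 and 63.63 in the 4 SCN db/+ libraries with a value. In the 6 DRG db/+ libraries the Nid1 values ran from 10.26 to 12.26 with a median of 11.64. The SCN and DRG values did not overlap, and the difference was 2.75 ± 0.19 (SE) on the scale of log2(FPKM + 1), with an adjusted p = 3.43e-10 (limma, Benjamini-Hochberg over all genes tested), which is the scale and test of all differences given here. A difference on this scale understates the change of low genes. Lama4, the alpha chain of laminins in vascular and nerve basement membranes (mm9 chr10:38685321-38829994, plus strand), had SCN db/+ FPKM values of 41.27, 34.61 and 31.57 and DRG values from 4.91 to 5.7, a difference of 2.53 ± 0.14 (adjusted p = 1.71e-11).

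All 10 members tested between SCN and DRG of db/+ mice passed at an adjusted p under 0.05, all higher in SCN, against 79% of 4330 genes tested. Of the genes that passed, 2210 were higher in SCN and 1211 lower. Their median difference was 1.22, against 0.33 over all genes tested. Itga8, a receptor for nephronectin and fibronectin, had 1.6 to 2.44 FPKM in 4 SCN libraries and 0.06 to 0.14 in 6 DRG libraries, a difference of 1.44 ± 0.16. Among the other genes, Itga2, Itga4, Itga9, Itgb3, Itgb7 and Lamc3 differed by 0.27 (Itga4) to 1.29 (Itgb7). The directions of Itga4 and Itgb3 turned with the scaling, Itga4 to a difference of -0.022 under median-of-ratios rescaling and -0.31 under quantile normalization, and Itgb3 to -0.10 under quantile normalization, where the median over all genes was -0.15. In bulk tissue, fewer cells of a type and less RNA per cell cannot be told apart.

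Between glomeruli and the surrounding cortex the members differed in both directions. So did all genes: of 4097 tested, 2140 passed as higher in Glom and 953 as lower. Itga2, the alpha chain of the collagen receptor alpha2beta1 (mm9 chr13:115626124-115722249, minus strand), had FPKM values of 6.4, 6.03, 7.52 and 9.17 in Glom db/+ and 0.04 to 0.15 in the 6 Cortex db/+ libraries. The groups were far apart, and the difference of 2.90 ± 0.11 (adjusted p = 1.2e-14) was the largest of any member in this comparison. Lamc1, the gamma chain of most laminins, had 15.17 to 20.94 FPKM in 6 Glom db/+ libraries and 2.21 to 4.37 in 5 of Cortex, a difference of 2.26 ± 0.12. Itga9, a tenascin receptor chain, had 15.06, 20.88 and 11.74 FPKM in Glom and 1.69 to 3.29 in Cortex, a difference of 2.35 ± 0.24. Of the 11 members tested, 8 passed, against 75.5% of 4097 genes, with 6 higher in Glom (also Itga5, Itgb3 and Lama4) and 2 lower. The lower ones were Lama2, the alpha chain of laminin-211, at -0.65 ± 0.13, and Lamc3, a gamma chain of limited distribution, at -0.54 ± 0.15. The median difference of the members was 0.80, against 0.33 over all genes tested. Without Glom db/+ replicate 5, whose removal left Itga5, Itga9 and Itgb3 with too few values, 5 members passed.

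**Figure D2:**
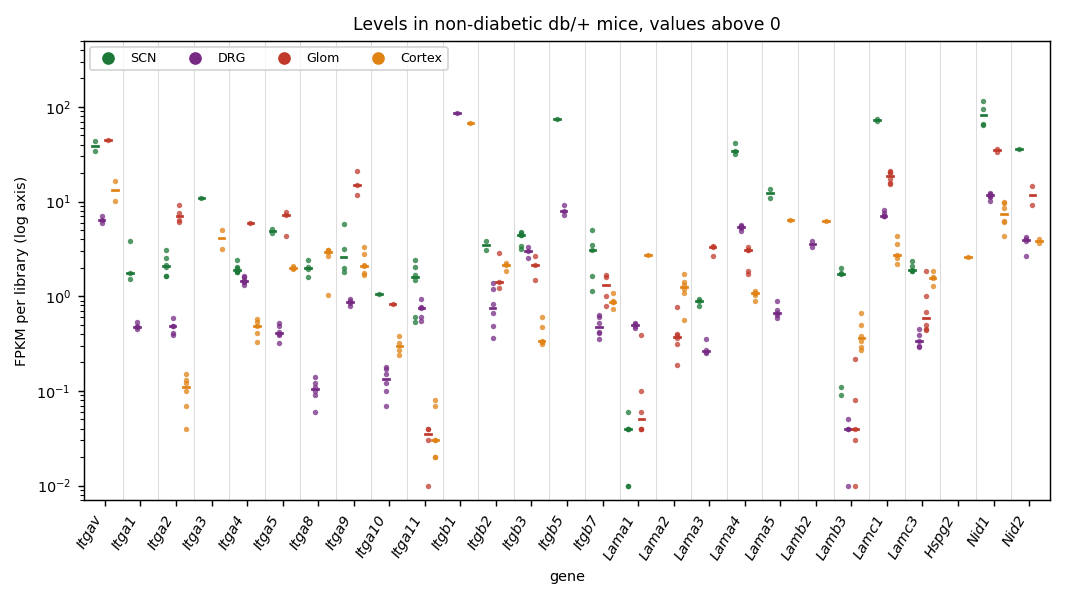
FPKM (log axis) in each db/+ library with a value, for 27 members whose median was at least 1 in a tissue, coloured by tissue, with a bar at the median. Nid1, Lamc1 and Lama4 lie highest in SCN, and Itga2 spans from 0.04 in Cortex to 9.17 in Glom.

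The bases before the transcription start are shown for 2 of these genes, Nid1 as the member with the largest SCN difference and Itga2 as the member that fell in both SCN and Glom of diabetic mice. They are the 250 bases before the start in RefSeq (build GRCm38.p6, a later build than the mm9 of the expression files), at chr13:13437352-13437601 on the plus strand for Nid1 and chr13:114932101-114932350 on the minus strand for Itga2. Capitals mark the GC box GGGCGG.
Nid1: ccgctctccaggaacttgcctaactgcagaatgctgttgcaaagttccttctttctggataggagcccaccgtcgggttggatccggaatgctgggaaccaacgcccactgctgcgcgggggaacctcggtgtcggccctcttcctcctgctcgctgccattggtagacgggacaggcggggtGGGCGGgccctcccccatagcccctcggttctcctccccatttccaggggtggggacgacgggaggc
Itga2: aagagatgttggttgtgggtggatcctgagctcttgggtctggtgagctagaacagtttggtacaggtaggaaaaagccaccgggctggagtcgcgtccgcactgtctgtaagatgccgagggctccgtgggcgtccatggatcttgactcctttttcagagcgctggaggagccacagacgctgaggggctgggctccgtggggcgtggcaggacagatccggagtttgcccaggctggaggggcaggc
On either strand, GGGCGG was in 11 of 27 windows of the 23 members that had one (40.7%) and in 32.74% of all 32851 windows. DR1, the direct repeat of AGGTCA with 1 base between the copies that PPAR binds with RXR, was in none of the 27 windows and in 0.03% of all windows, and its unit AGGTCA, which overlaps it, was in none of the 27 and in 14.02% of all. The TATA box TATAAA (12.37% of all) and the AP-1 motif TGANTCA (6.75%) were also in none of the 27. These are letter matches in short windows and not binding sites.

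The main comparison set untreated db/db against untreated db/+ mice in each tissue. Every member that passed fell in the diabetic mice: 2 of 9 tested in SCN, 1 of 7 in DRG, 1 of 6 in Glom and 3 of 10 in Cortex. Lama4, called in Cortex, met the filter on low values only through non-diabetic libraries, so its direction adds no support. The background of all genes tested was 14.9% for SCN (4233 genes), 4.13% for DRG (3829), 25.4% for Glom (4210) and 10.3% for Cortex (3925). Of the genes that passed, 308 of 631 were lower in SCN, 51 of 158 in DRG, 375 of 1069 in Glom and 236 of 406 in Cortex. All of these calls rest on reading 0 as missing, though not always the differences. Itga2 in SCN had a value in all 6 libraries of both groups. With each 0 as a value its difference stayed at -0.39, and its SE rose from 0.12 to 0.27. With each 0 entered as a value, none of the 15 member calls made within a tissue in any comparison was kept, and 4 of them changed direction.

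In sciatic nerve the integrin chains Itgb3 and Itga2 fell in db/db mice. Itgb3, which pairs with Itgav as a receptor for vitronectin and with Itga2b on platelets (mm9 chr11:104469370-104531790, plus strand), had FPKM values of 4.81, 4.48, 4.43, 4.69, 3.37 and 3.14 in db/+ and of 1.81, 1.85, 2.8, 1.62 and 1.89 in the 5 db/db libraries with a value. All db/db values lay below all db/+ values, with db/db replicate 4 at 2.8 the nearest, and Itgb3 fell by 0.78 ± 0.13 (adjusted p = 0.000258). Itga2 had 3.11, 2.53, 2.14, 2.05, 1.63 and 1.64 FPKM in db/+ and 1.7, 1.6, 1.56, 1.12, 1.14 and 1.34 in db/db, so that only db/db replicate 1 reached into the db/+ range. Itga2 fell by 0.39 ± 0.12 (adjusted p = 0.028).

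The Itga2 call did not hold without SCN db/+ replicate 1 (-0.31, adjusted p = 0.071) or replicate 2 (-0.36, adjusted p = 0.059), nor without db/db replicate 4 (-0.35, adjusted p = 0.061) or replicate 5 (-0.36, adjusted p = 0.054), and then 1 member passed in SCN. It was also lost when the 2 groups were fitted alone (-0.39, adjusted p = 0.057). Quantile normalization moved the median difference of all genes to 0.51, where Itga2 stood at 0.30 and Itgb3 at -0.20, and neither of them passed. The only platelet marker tested, Pf4, also fell in SCN db/db by 0.61 ± 0.18 (adjusted p = 0.031), and the summed FPKM of the 4 platelet markers in the files was 45.69 to 89.49 in db/+ and 25.2 to 51.62 in db/db. The Schwann cell marker Mbp fell by 0.31 ± 0.09, 1 of 2 tested of that list, whose summed level was 11230 to 35120 FPKM in db/db. None of the 5 adipocyte markers was tested in this comparison, and their summed level was 0 to 2874 FPKM in db/+ and 2428 to 8591 in db/db, where 4 of the 5 were at 0 in every library. These sums depend on which entries were missing. The part of these markers in the changes of Itgb3 and Itga2 was not tested. The platelet partner Itga2b was listed at 0 in all SCN db/+ and db/db libraries.

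The other 7 members tested in SCN had differences from -0.55 (Itga9, adjusted p = 0.23) to 0.19 (Itga4, adjusted p = 0.29), and the median over the 9 was -0.23, against 0.02 over all genes tested. Lamb3, a laminin beta chain of epithelial basement membranes, varied widely among the db/+ nerves. Lamb3 was at 2, 1.7 and 1.74 FPKM in replicates 1 to 3 and at 0.09 and 0.11 in replicates 5 and 6, and its difference was -0.06 ± 0.31 (adjusted p = 0.92). The perineurial marker Cldn1, tested from the same nerves, fell by 1.57 ± 0.50 (adjusted p = 0.038), and its part in these values was not tested.

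In the glomeruli Itga2 fell in db/db mice while the other members tested did not pass. Its FPKM values were 6.4, 6.03, 7.52 and 9.17 in db/+ and 3.14, 3.59, 3.48, 2.98 and 6.4 in db/db, with db/db replicate 6 at the level of db/+ and the remaining 4 below every db/+ library. Itga2 fell by 0.78 ± 0.16 (adjusted p = 0.0021). The other 5 members tested ranged from -0.16 (Lama4, adjusted p = 0.65) to 0.41 (Itga5, the fibronectin receptor chain, adjusted p = 0.087), and the median over the 6 was 0.22, against 0.04 over all genes tested. Without Glom db/+ replicate 2, 2 members passed (also Lamc3). All 5 distal nephron markers tested rose in the same libraries, Krt18 by 2.70 ± 0.51 and Cdh1 by 2.95 ± 0.59, and the summed level of that list was 7.9 to 89.93 FPKM in db/+ and 28.5 to 100.6 in db/db. The summed podocyte level was 0 to 4433 FPKM in db/db, against 3702 to 5514 in db/+, with 4 of the 6 podocyte markers at 0 in both groups. With a 0 read as missing, a sum of 0 gives no podocyte level. The part of these markers in the values of the members was not tested.

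Other members had too few values in Glom for a test. Nid1 was at 66.44, 55.79, 57.22, 82.8 and 36.22 FPKM in 5 db/db libraries, at 33.11 and 36.31 in 2 of db/+, and was listed at 0 in all 6 of db/db PIO. Itgb8, the partner of Itgav in the activation of latent TGF-beta, was at 4.59 to 8.52 FPKM in 5 db/db libraries, at 9.19 in 1 of db/db PIO and at 0 in all 12 of db/+ and db/+ PIO. Lamc1 had a value in 6, 5 and 6 libraries of db/+, db/+ PIO and db/db PIO and in 1 of db/db (18.58 FPKM), inside the db/+ range. With a 0 read as missing, no direction can be drawn from which libraries held a value.

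In dorsal root ganglia Nid1 fell in db/db mice. Its FPKM values were 11.53, 11.27, 12.26, 12.09, 11.76 and 10.26 in db/+ and 9.29, 9.16, 7.25, 9.64 and 9.94 in db/db, and the groups did not overlap. Nid1 fell by 0.32 ± 0.08 (adjusted p = 0.030). The lowest value came from db/db replicate 3, and without that library the difference was -0.25 (adjusted p = 0.077), with no member passing. The call was also lost without db/+ replicate 1, 3 or 4 or db/db replicate 1 or 2 (adjusted p from 0.051 to 0.063), and with the replicate number as a block (-0.32, adjusted p = 0.081) or quantile normalization (-0.41, adjusted p = 0.44). Nid2, the second nidogen, had 2.69 to 4.26 FPKM in 4 db/+ libraries and 3.24 to 3.81 in 4 of db/db, which overlap (-0.02 ± 0.13, adjusted p = 0.95). In the same libraries 4 of 7 macrophage markers tested rose, C1qc by 0.53 ± 0.12, and Cldn1 rose by 0.53 ± 0.10, and their part in the Nid1 value was not tested. All 7 members tested had a difference below 0, with a median of -0.13, against 0.01 over all genes tested.

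In the cortex the leucocyte chain Itgb2 and the laminin chains Lama4 and Lamc3 fell in db/db mice. Itgb2, the beta chain shared by the leucocyte integrins (mm9 chr10:76992997-77028453, plus strand), had 2.16, 1.86 and 2.26 FPKM in the 3 db/+ libraries with a value and 1.12, 1.17, 1.54, 1.49, 1.22 and 0.39 in db/db. Lama4 had 1.07, 1.13, 1.07, 1.03 and 0.9 FPKM in db/+ and 0.6, 0.79, 0.48, 0.79 and 0.28 in db/db. No db/db or db/db PIO library reached 1 FPKM of Lama4, the level a gene needed in 5 libraries to be tested. Lama4 was thus tested only through its non-diabetic libraries, and its fall adds no support for a common direction. Lamc3 (mm9 chr2:31742811-31802059, plus strand) had 1.84, 1.58, 1.57 and 1.29 FPKM in db/+ and 0.92, 0.83, 0.99, 0.66, 1.32 and 0.35 in db/db. Of the diabetic Cortex libraries only db/db replicate 5 reached 1 FPKM of Lamc3. The groups did not overlap for Itgb2 and Lama4, whereas the Lamc3 value of db/db replicate 5 lay just above the lowest db/+ value. The falls were 0.55 ± 0.16 (adjusted p = 0.033) for Itgb2, 0.37 ± 0.10 (adjusted p = 0.022) for Lama4 and 0.49 ± 0.14 (adjusted p = 0.025) for Lamc3.

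The lowest value of each of these genes came from db/db replicate 6, the library that stood apart. Without it the differences were -0.42 for Itgb2, -0.30 for Lama4 and -0.41 for Lamc3, all with adjusted p under 0.05 (from 0.011 to 0.040), and 4 members passed. Itgb2 could not be tested without db/+ replicate 2, 4 or 5, when 2 members passed. Its call was lost without db/db replicate 1 (-0.55, adjusted p = 0.052) and the Lamc3 call without db/+ replicate 1 (-0.44, adjusted p = 0.073). When the 2 groups were fitted alone no member passed: Itgb2 and Lamc3 kept the same differences (adjusted p = 0.146 and 0.085), and Lama4 was not tested because fewer than 5 libraries reached 1 FPKM. With the replicate number as a block Lama4 alone passed, with Itgb2 at -0.50 (adjusted p = 0.063) and Lamc3 at -0.41 (adjusted p = 0.084). The Itgb2 call was also lost with a pseudocount of 0.1 (-0.90, adjusted p = 0.070), and none of the 3 passed with quantile normalization (adjusted p from 0.22 to 0.28). The 3 macrophage markers tested fell too, C1qa by 0.96 ± 0.23, Lyz2 by 0.95 ± 0.29 and Emr1 by 0.54 ± 0.13, and the summed macrophage level was 53.82 to 110.4 FPKM in db/+ and 30.73 to 76.7 in db/db. Itgax, a leucocyte alpha chain that pairs with Itgb2, fell by 0.60 ± 0.07 (adjusted p = 1.53e-05). The platelet marker Pf4 and Nkg7 of T and NK cells fell by 0.78 ± 0.20 and 0.65 ± 0.20. The part of these markers in the values of the members was not tested.

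Of the other 7 members tested in Cortex, Itga9 differed by -0.41 ± 0.13 (adjusted p = 0.058) and Itga5 by -0.25 ± 0.12 (adjusted p = 0.23). Over the 10 members the median difference was -0.19, against 0.00 over all genes tested.

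Pioglitazone in db/db mice changed no member past the threshold in any tissue (limma, adjusted p under 0.05). The counts at an unadjusted p under 0.05 were 2 of 9 tested in SCN, 1 of 7 in DRG, 1 of 6 in Glom and 1 of 11 in Cortex. At that unadjusted level stood 999 of 3940 genes tested in SCN and 325 of 3794 in DRG. In Glom it was 1501 of 4158 and in Cortex 868 of 3890. At an adjusted p under 0.05, 10.1% of 3940 genes tested passed in SCN, 0% of 3794 in DRG, 23.1% of 4158 in Glom and 3.24% of 3890 in Cortex. The median difference of the members was -0.01 in SCN, 0.03 in DRG, -0.06 in Glom and -0.13 in Cortex, against 0.02, -0.01, -0.04 and -0.05 over all genes tested.

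In SCN, untreated db/db nerves had 1.12 to 1.7 FPKM of Itga2 and treated ones 0.77, 1.12, 1.01, 0.69 and 0.81, so treated nerves lay at or below the lowest untreated value (-0.36 ± 0.12, adjusted p = 0.064). Itga2 passed without SCN db/+ replicate 1 or db/db replicate 4, with 1 member then called. Itga9, which had 1.64 to 1.77 FPKM in 3 untreated libraries and 2.32 to 6.56 in 6 treated ones, differed by 0.66 ± 0.28 (adjusted p = 0.15), with no overlap between the groups. Itgb3 stayed within the range of untreated db/db nerves in 4 of 6 treated libraries and below it in 2 (-0.08 ± 0.13, adjusted p = 0.74).

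In Glom, Itga2 was at 3.43 to 5.55 FPKM in the 6 db/db PIO libraries, all below the db/+ range and all but the lowest above 4 of the 5 db/db libraries (0.18 ± 0.15, adjusted p = 0.41). Itga5 was at 8.46, 9.18, 7.13 and 10.29 FPKM in db/db and at 5.91, 5.97 and 6.57 in db/db PIO, which did not overlap (-0.44 ± 0.17, adjusted p = 0.071), and it passed without Glom db/+ replicate 5 or db/db replicate 5, with 1 member then called. In the same comparison all 5 distal nephron markers tested, 3 of 4 macrophage markers (C1qa by 3.08 ± 0.47) and 2 of 2 platelet markers (Pf4 by 0.95 ± 0.34) fell, and the part of these markers in the members' values was not tested. In DRG, Itgav ranged from 5.19 to 7.2 FPKM without the drug and from 4.41 to 6.14 with it (-0.23 ± 0.10, adjusted p = 0.52). In Cortex, Itga5 had values of 1.73, 1.58 and 1.25 FPKM without the drug, and with it 0.73 to 1.29 (-0.30 ± 0.11, adjusted p = 0.13).

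**Figure D3:**
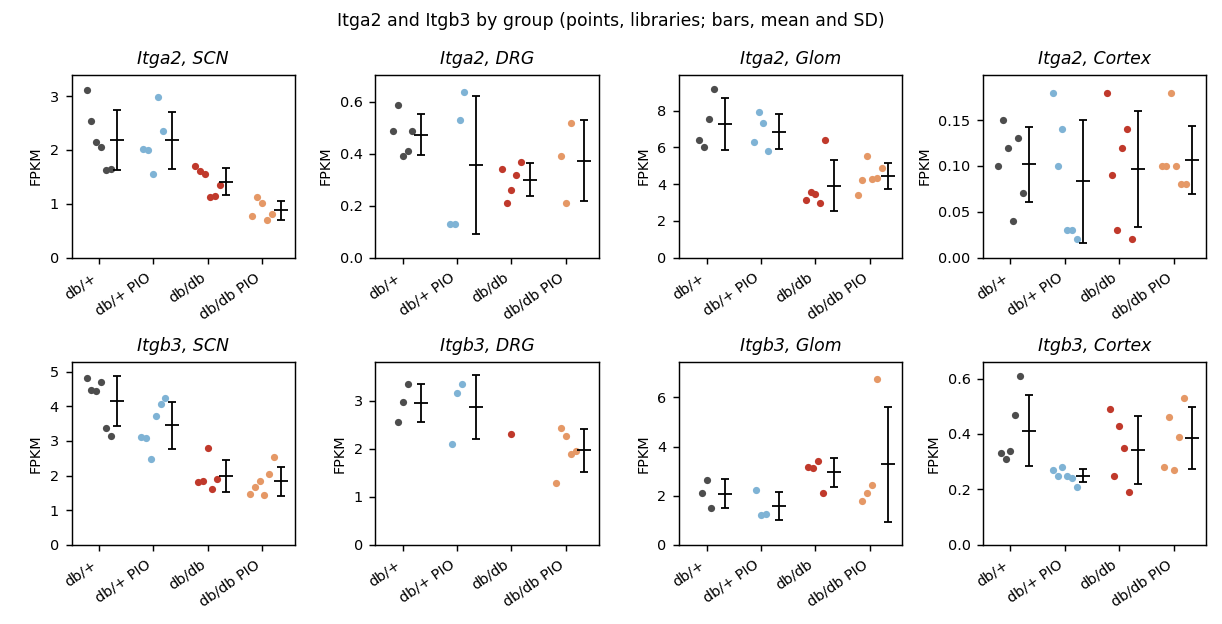
FPKM of Itga2 (top) and Itgb3 (bottom) in each library with a value, by group, in the 4 tissues, with the mean and SD beside the points and axes from 0. In SCN the db/db and db/db PIO values of Itgb3 lie below those of db/+, and in Glom 4 of the 5 db/db values of Itga2 lie below every db/+ value.

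Pioglitazone in db/+ mice likewise changed no member past the threshold (limma), of 12 tested in SCN, 9 in DRG, 10 in Glom and 10 in Cortex. The counts at an unadjusted p under 0.05 were 2 in SCN (Lamb3 and Nid1), 0 in DRG, 1 in Glom (Itgb7) and 0 in Cortex. At that unadjusted level stood 659 of 5142 genes tested in SCN and 403 of 4153 in DRG. In Glom it was 118 of 4419 and in Cortex 103 of 4004. At an adjusted p under 0.05, 0.0778% of 5142 genes passed in SCN, 0% of 4153 in DRG, 0% of 4419 in Glom and 0.025% of 4004 in Cortex. Almost nothing passed in these comparisons. Itgb5, the vitronectin receptor chain, had a value in Cortex in mice given the drug alone, at 25.41 to 30.78 FPKM in 5 db/+ PIO libraries and at 33.87, 31.87 and 28 in 3 of db/db PIO. It was listed at 0 in all 12 Cortex libraries of untreated mice, which gives no level to compare with.

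The genotypes were also compared among mice that all received pioglitazone. Again every member that passed was lower in the diabetic mice: 2 of 10 tested in SCN, 0 of 9 in DRG, 1 of 9 in Glom and 5 of 11 in Cortex. Over all genes tested, 33.8% of 4402 passed in SCN, 8.64% of 4095 in DRG, 8.41% of 4255 in Glom and 19.7% of 3865 in Cortex. Of the genes that passed, 579 of 1487 were lower in SCN, 186 of 354 in DRG, 178 of 358 in Glom and 487 of 761 in Cortex. In DRG, where limma called no member, 1 of 9 had an unadjusted p under 0.05 (Itgb3, -0.38 ± 0.15, adjusted p = 0.14), as did 1004 of 4095 genes.

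In SCN the genes called were Itga2 and Itgb3. Their group means came from other libraries than in the untreated mice, but both comparisons share the variance fitted over all 24 SCN libraries. Itga2 had 2.02, 2, 1.55, 2.98 and 2.35 FPKM in db/+ PIO and 0.77, 1.12, 1.01, 0.69 and 0.81 in db/db PIO. All treated db/db nerves lay below all treated db/+ nerves, and Itga2 was lower by 0.75 ± 0.13 on the log2 scale (a difference of -0.75, adjusted p = 0.00015). Itgb3 had 3.11, 3.09, 2.48, 3.72, 4.07 and 4.24 FPKM in db/+ PIO and 1.48, 1.66, 1.84, 1.44, 2.04 and 2.54 in db/db PIO, where only the highest db/db PIO value passed the lowest of db/+ PIO (-0.65 ± 0.12, adjusted p = 0.00029). Leaving out any library kept both calls, and with quantile normalization the Itgb3 call was lost (-0.41, adjusted p = 0.15). The platelet marker Pf4 rose in this comparison by 0.61 ± 0.19 (adjusted p = 0.019), the opposite direction to its change in untreated mice. Both Schwann cell markers tested fell (median difference -0.47) and 3 of 3 macrophage markers tested rose, and the part of these in the members' values was not tested. The median over the 10 members was 0.19, against 0.05 over all genes tested.

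In Glom, Itga2 had 6.29, 7.94, 7.34 and 5.83 FPKM in db/+ PIO and 3.43, 4.25, 5.55, 4.29, 4.31 and 4.86 in db/db PIO. The groups did not overlap, and Itga2 fell by 0.53 ± 0.16 (adjusted p = 0.044). This call was lost in 11 of the 24 fits that left out a library, where the difference lay between -0.56 and -0.46 and no member passed. The call was also lost without the filter on low values (adjusted p = 0.066), with median-of-ratios rescaling (adjusted p = 0.11) and with quantile normalization (adjusted p = 0.24). The libraries of the 11 fits were replicates 1, 2 and 3 of db/+ PIO, 1 and 4 of db/+, 1, 2, 4 and 5 of db/db PIO, and 2 and 3 of db/db. Of 6 macrophage markers tested 3 fell, C1qa by 1.97 ± 0.47, and their part was not tested. The median over the 9 members was -0.36, against -0.03 over all genes tested.

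In Cortex the 5 genes called were Itga5, Itga9, Itgb2, Lama4 and Lamc3. Lama4 was at 0.66 to 1.33 FPKM in 6 db/+ PIO libraries and at 0.28 to 0.53 in 6 of db/db PIO, without overlap (-0.45 ± 0.09, adjusted p = 0.0016). Here too Lama4 was tested only through its non-diabetic libraries, so its direction adds no support. Lamc3 was at 1.35 to 2.66 and 0.56 to 0.97 FPKM (-0.62 ± 0.13, adjusted p = 0.0025), Itga5 at 1.42 to 2.28 and 0.73 to 1.29 (-0.47 ± 0.10, adjusted p = 0.0036), and Itgb2 at 2.01 to 2.25 and 0.85 to 1.52 (-0.58 ± 0.16, adjusted p = 0.017), each without overlap. Itga9 was at 1.71 to 2.6 and 0.69 to 1.58 FPKM (-0.54 ± 0.13, adjusted p = 0.0065). These calls were kept without any 1 library wherever the gene could still be tested, and Itgb2 could not be tested without db/+ PIO replicate 1, 2 or 3, when 4 members passed. With the replicate number as a block Itgb2 did not pass (-0.46, adjusted p = 0.073). With quantile normalization Lama4 alone of the 5 passed, and Itga5 stood at -0.39 (adjusted p = 0.19), Itga9 at -0.51 (adjusted p = 0.088), Itgb2 at -0.62 (adjusted p = 0.064) and Lamc3 at -0.58 (adjusted p = 0.054).

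The median over the 11 members tested in Cortex was -0.37, against -0.02 over all genes tested. All 5 macrophage markers tested fell in this comparison, C1qc by 1.61 ± 0.28 and C1qa by 1.33 ± 0.23, and their part in the Itgb2 value was not tested.

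**Figure D4:**
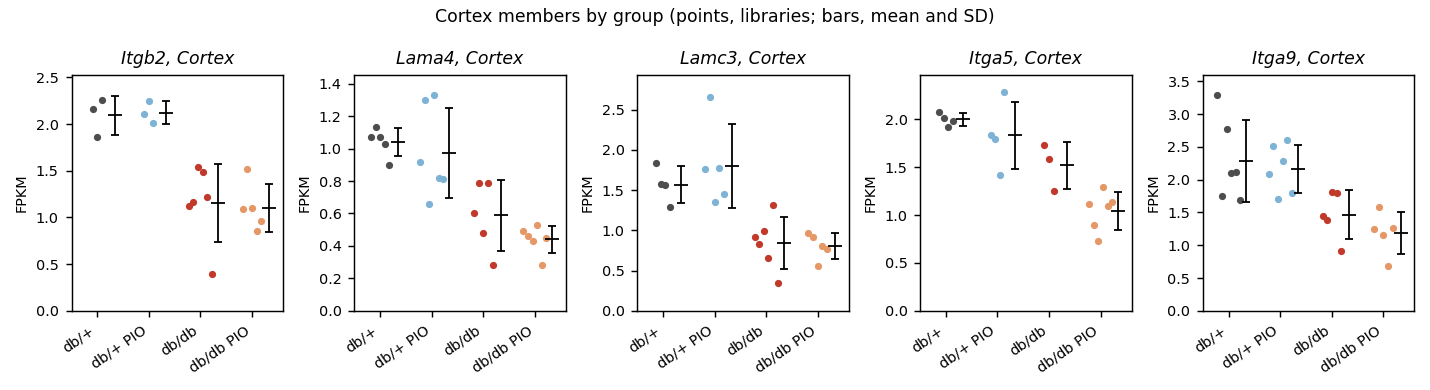
FPKM of 5 members in each Cortex library with a value, by group, with the mean and SD beside the points and axes from 0. The means of Itgb2, Lama4, Lamc3, Itga5 and Itga9 lie lower in db/db and db/db PIO than in the db/+ groups, and the low point of the db/db group in several panels is replicate 6.

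**Figure D5:**
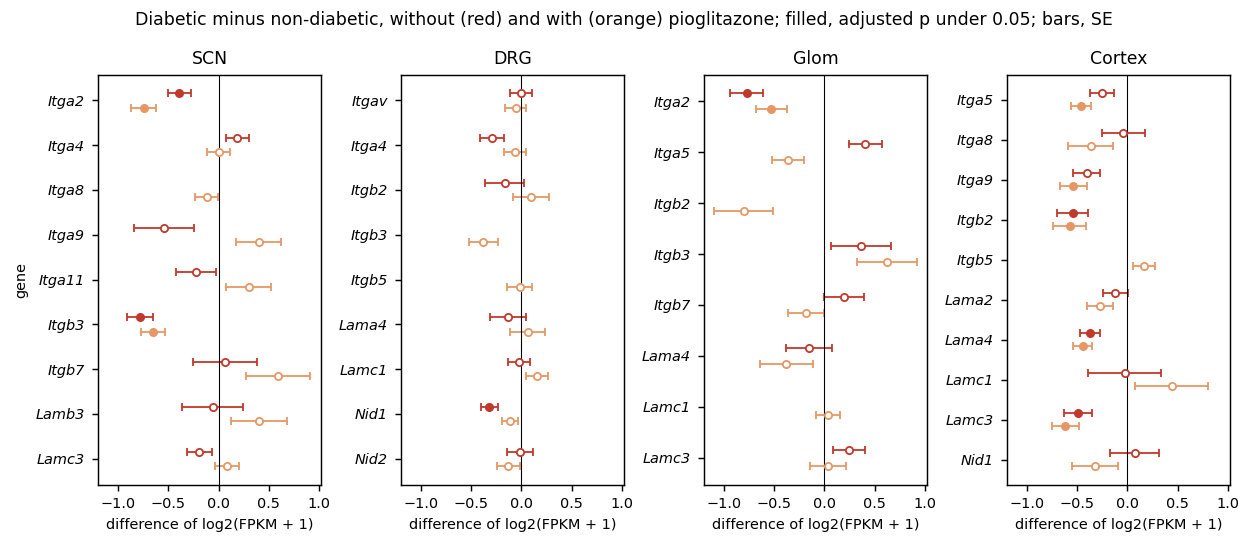
Difference in log2(FPKM + 1) between diabetic and non-diabetic mice for the members shown, without pioglitazone (red) and with it (orange), by tissue, with SE bars and filled points for an adjusted p under 0.05. All filled points lie below 0, from -0.32 (Nid1, DRG) to -0.78 (Itgb3, SCN and Itga2, Glom).

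Whether the response to diabetes differs between nerve and glomeruli was tested as an interaction for 6 members. Itgb3 passed: it fell in SCN db/db and stood in Glom at 2.12, 2.65 and 1.48 FPKM in db/+ and 3.16, 3.14, 3.4 and 2.09 in db/db. The difference of the changes, Glom minus SCN, was 1.15 ± 0.29 (adjusted p = 0.0049), 1 of 6 members against 18.8% of 3502 genes. The call was lost with quantile normalization (0.38, adjusted p = 0.41) and with each 0 as a value (1.55, adjusted p = 0.25). The Glom change of Itgb3 alone, 0.36 ± 0.30, did not pass (adjusted p = 0.41). The test of Itgb3 needed all 3 Glom db/+ values, and without replicate 1, 4 or 5 it could not be made. Without Glom db/+ replicate 2 (also Lamc3) or Glom db/db replicate 6 (also Itga2), 2 members passed. Itga2, lower in both tissues, had a difference between its changes of -0.39 ± 0.20 (adjusted p = 0.18). For pioglitazone in db/db mice, 1 of 6 members passed, against 22.9% of 3345 genes. This was Itga2, with changes of 0.18 in Glom and -0.36 in SCN and a difference, Glom minus SCN, of 0.53 ± 0.19 (adjusted p = 0.040). The change in each tissue alone did not pass, and the call was lost without the filter on low values (adjusted p = 0.053) and in 12 of the 48 fits that left out a library (differences from 0.47 to 0.52), namely replicates 1, 2, 3 and 4 of Glom db/db, 3 and 6 of Glom db/db PIO, 1, 2 and 3 of SCN db/db, and 1, 5 and 6 of SCN db/db PIO.

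Other genes of the pathway were read from lists of integrin adaptors, ligands and matrix partners, compared between untreated db/db and db/+ mice. Among the gene symbols were 21 integrin adaptors, 16 ligands other than laminin, 19 other basement membrane components and 9 non-integrin laminin receptors. Most could not be tested, so the counts do not describe whole lists. Over all genes tested, 14.9% passed in SCN, 4.13% in DRG, 25.4% in Glom and 10.3% in Cortex. Of those that passed, 323 of 631 rose in SCN and 694 of 1069 in Glom. Of the integrin adaptors tested, 2 of 2 rose in SCN, Bcar1, a docking protein of focal adhesions, by 0.51 ± 0.14 (adjusted p = 0.025) and Parvb, an actin-binding partner of integrin-linked kinase, by 0.46 ± 0.13 (adjusted p = 0.025). In Glom 2 of 4 rose, the tyrosine kinase Src by 0.89 ± 0.13 (adjusted p = 0.0002) and the epithelial kindlin Fermt1 by 1.12 ± 0.32 (adjusted p = 0.012), and both fell with pioglitazone, by 0.54 ± 0.12 and 1.40 ± 0.32. The distal nephron markers moved in the same directions in these comparisons. No adaptor passed of 1 tested in DRG and 2 in Cortex.

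Among the ligands other than laminin, 1 of 7 tested rose in SCN, Mfge8, a ligand of integrins with Itgav, from a mean of 46.36 to 231.6 FPKM (2.21 ± 0.26, adjusted p = 2.2e-05). In Glom 2 of 4 rose, the matricellular protein Cyr61 by 0.85 ± 0.30 and Icam1, a ligand of the Itgb2 integrins, by 0.61 ± 0.22. In Cortex 1 of 7 fell, Tgfb1, which is held latent in a complex that integrins bind, by 0.35 ± 0.11 (adjusted p = 0.033). In DRG none of 7 passed. Tgfb1 in Cortex fell further with pioglitazone in db/db mice, by 0.63 ± 0.11 (adjusted p = 0.0031).

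Of the other basement membrane components, 1 of 4 tested fell in SCN, the laminin-binding netrin Ntn4, from a mean of 18.3 to 5.85 FPKM (-1.30 ± 0.36, adjusted p = 0.022), and 1 of 4 fell in Glom, the collagen Col15a1 (-0.92 ± 0.31, adjusted p = 0.034). None passed of 5 in DRG and 4 in Cortex. None of the non-integrin laminin receptors passed, of 2 tested in SCN and 1 in each of the other tissues. Of the leucocyte alpha chains outside the rule only Itgax was tested, and it rose in SCN (1.75 ± 0.25, adjusted p = 0.00034) and fell in Cortex.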

How the data were processed

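RNA from 95 tissue samples was sequenced as poly(A) libraries, and the authors aligned the reads to the mouse genome (NCBI 37, mm9) with TopHat and Bowtie and deposited gene FPKM values from Cufflinks, per sample and with 2 decimals (tool versions: not given in the sources used here). No counting interval was given, since the files do not hold the depth of each library. The 16 groups follow the labels. An exact 0 was treated as missing. Values were analysed as log2(FPKM + 1) with limma 3.58.1 in R 4.3.3, with group means fitted over the whole tissue (all db/+ libraries for tissue contrasts, SCN and Glom together for interactions) and a mean-dependent variance. Genes needed at least 1 FPKM in 5 libraries of the fit and 3 values in each group compared. P-values were two-sided and Benjamini-Hochberg adjusted over all genes tested, and 0.05 was the threshold. Fits were also run on simulated data, with fewer zeros than the members had, placed at random, and larger changes than those called within a tissue. That run does not measure how reliable the calls made here are. Per-library values and tests are given for members (at most the 8 largest changes each way) passing between db/+ and db/db or with pioglitazone in db/db, and by range or count for others, apart from members described for missing values or a position near the threshold, chosen after their values were seen. Members and gene lists were chosen with earlier results of these data known. Alternatives were a pseudocount of 0.1, no filter, median-of-ratios and quantile scaling, each 0 as a value, the compared groups alone, a replicate block and leaving out each library. The values of 1 member are not reported here. Coordinates were read from GENCODE M1 (mm9).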

Additional observations from a re-analysis of the deposited data

Results flagged for a closer look

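A single library lay far from the others of its group in 5 of 51 combinations of a member that passed in a comparison and a group of that comparison, with 4 to 10 values in the group (chance gives about 1 in 20). Itga2 in Glom db/db replicate 6 was at 6.4 FPKM against 2.98 to 3.59 in the other 4 libraries with a value. Itgb2 in Cortex db/db replicate 6 was at 0.39 against 1.12 to 1.54. Itgb3 in SCN db/db replicate 4 was at 2.8 against 1.62 to 1.89. Lama2 in Glom db/+ replicate 2 was at 0.77 against 0.19 to 0.4. Nid1 in DRG db/db replicate 3 was at 7.25 against 9.16 to 9.94. Tests of the difference between tissues singled out Itgb3, whose change with diabetes was -0.78 in SCN and 0.36 in Glom on the log2 scale (Glom minus SCN, 1.15), and Itga2, whose change with pioglitazone in db/db mice was -0.36 in SCN and 0.18 in Glom (Glom minus SCN, 0.53).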

How the results depend on the processing

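The calls depend on reading 0 as missing and on scaling, and the depth of each library, which is unknown, limits them. The counts are of members called, and a count can hold other members than those called in the main fit. The direction of such other members is not given here. With each 0 as a value they went for diabetes in SCN from 2 to 0, in DRG from 1 to 0, in Glom from 1 to 2 and in Cortex from 3 to 0, for pioglitazone in db/db from 0 to 2 in Glom, under pioglitazone from 2 to 0 in SCN, 1 to 0 in Glom and 5 to 0 in Cortex, from 10 to 2 for SCN against DRG, 8 to 3 for Glom against Cortex and 1 to 0 for the pioglitazone difference between SCN and Glom. Directions turned there for Itga2 in Glom (0.46) and Itga5 and Itgb2 in Cortex (0.031 and 0.066) under pioglitazone and Itgb2 in Cortex with diabetes (0.27). With each 0 as a value the diabetes call of Itga2 in Glom was lost (-0.14), so the 2 members called there were others. With quantile normalization the counts were 1 in SCN, 0 in DRG and 0 in Cortex for diabetes and 1 in SCN, 0 in Glom and 1 in Cortex under pioglitazone, and Itga2 in SCN (0.30), Itga4 (-0.31) and Itgb3 (-0.10) for SCN against DRG turned, as did Itga4 (-0.022) with median-of-ratios. The 1 member called for diabetes in SCN with quantile normalization was neither Itga2 nor Itgb3. With the compared groups alone diabetes gave 1 in SCN, 2 in DRG and 0 in Cortex (Lama4 not tested), and pioglitazone in db/db 1 in SCN and 1 in Glom. A pseudocount of 0.1 and median-of-ratios each gave 1 for pioglitazone in db/db SCN, and median-of-ratios 0 in Glom under pioglitazone. Without the filter diabetes gave 5 in Cortex, the genotypes under pioglitazone 1 in DRG and 0 in Glom, SCN against DRG 16 and the pioglitazone difference 0. The replicate number as a block gave for diabetes 0 in DRG, 2 in Glom and 1 in Cortex, for pioglitazone in db/db 1 in Glom, and 2 in Glom under pioglitazone. Libraries of different groups of a tissue come from different mice. Those of the same number correlated above 0.1 in 12 of 36 pairs in SCN, 11 of 33 in DRG, 18 of 36 in Glom and 13 of 36 in Cortex. Their median correlation was 0.016 in SCN, 0.042 in DRG, 0.104 in Glom and 0.048 in Cortex. For libraries of different numbers it was 0.006, -0.001, -0.028 and -0.010. The labels do not name the animal, so the main fits did not pair by number. Because these correlations compare different mice, they cannot show whether a number marks the same mouse in several tissues. That was not examined. The comparisons between tissues and the interactions treated all libraries as independent. Leaving out a library gave ranges of 1 to 2 (SCN), 0 to 1 (DRG), 1 to 2 (Glom) and 2 to 4 (Cortex) for diabetes, 0 to 1 in SCN and in Glom for pioglitazone in db/db, 0 to 1 in Glom and 4 to 6 in Cortex under pioglitazone, 9 to 10 for SCN against DRG, 5 to 8 for Glom against Cortex, and 0 to 2 and 0 to 1 for the differences in diabetes and pioglitazone. The cause of these changes was not tested.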
